A study of Mus musculus with 63 samples.

Results

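The comparison described here set 23 undivided tumours against 20 minor clones, 43 of the 63 RNA-seq libraries made from small intestinal tumours of 2 mice. Undivided tumours were the libraries whose sample label carries a tumour number and no clone letter. Minor clones were the smaller of the 2 differently coloured clones of each of 20 tumours. The labels give these clones only a letter, and which letter was the minor clone was taken, by sample name, from the source data of the study. The 20 larger (major) clones of the same tumours were used only for side-by-side values.

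All libraries came from Apc het mice, which carry Villin-creERT2, 1 floxed Apc allele (Apc fl/+) and the Rosa Confetti reporter. Tamoxifen (4 mg, given intraperitoneally from the age of 8 weeks) deleted 1 Apc allele in cells with an active Villin promoter, which is the intestinal epithelium, and switched on a fluorescent colour in a share of crypts. ENU (N-ethyl-N-nitrosourea, 200 mg/kg) followed 10 days later and mutagenised the tissue. Both groups and the major clones carried the same alleles and received the same agents, so no library comes from normal or untreated tissue. The female mouse gave 10 undivided tumours and 10 minor clones, and the male mouse gave 13 and 10. Sex and animal are therefore the same variable, and each p-value below measures the spread between tumours of these 2 animals, not between animals. The label for tissue is microdissected tumour in every case. Undivided tumours are those whose label names no clone. Whether each was taken whole, and which of them arose from a single clone, is not given in the labels, so all 23 were used. A minor clone is a piece cut out of a larger lesion by colour, and a different way of cutting cannot be told apart from a different biology. The labels place 12 undivided tumours and 8 minor clones in segment SI10 of the small intestine, 11 and 10 in SI20, and 0 and 2 in SI30.

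Loss of Apc stabilises beta-catenin, and its TCF-dependent targets keep intestinal cells in a crypt-like, dividing state. In normal gut the cells that leave the crypt become absorptive enterocytes, which digest and take up sugars, peptides and fat, or secretory cells, among them hormone-releasing enteroendocrine cells, mucus-producing goblet cells and antimicrobial Paneth cells. Intraepithelial lymphocytes, many of them cytotoxic T cells, sit between enterocytes and are held there in part by butyrophilin-like proteins on the epithelial surface. Adenomas retain some of these differentiated cells in varying amount. In bulk RNA, fewer cells of a type and less RNA per cell cannot be told apart.

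Summed over genes, an undivided tumour held 26560000 to 45910000 normalised counts and a minor clone 26140000 to 33110000. Sequencing depth, estimated from the value of a single read among low counts, had a median of 29660000 reads in undivided tumours and 32850000 in minor clones, and the groups were not separated by it (permutation within mice, two-sided p = 0.147). The share of Rn18s, the 18S ribosomal RNA left after poly(A) selection, was 0.561% to 19.4% (median 3.12%) in undivided tumours and 1.03% to 15.6% (median 6.19%) in minor clones (p = 0.152). The epithelial markers Epcam, Cdh1 and Krt8 were present in all 43 libraries, with lowest values of 31001, 11999 and 47505 in undivided tumours and 31344, 19781 and 82508 in minor clones. Epcam ranged from 31001 to 74424 (median 45445) in undivided tumours and from 31344 to 58419 (median 46116) in minor clones, with a log2 difference of 0.08 (95% confidence interval -0.10 to 0.26). The 4 libraries that lay farthest from the mean of their own group and mouse were all male, namely undivided tumours 5, 15 and 18 and the minor clone of tumour 19. List counts of 3 or more are given below with and without them.

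Of 16491 genes with a mean of at least 10 normalised counts, 610 differed between undivided tumours and minor clones (limma on log2(value + 1) with the mouse as covariate, Benjamini-Hochberg adjusted p under 0.05). Among these genes 375 were higher in undivided tumours, 2.27% of the genes tested, and 235 were lower, 1.43%. The difference was moderate for most: the median log2 fold change of the higher genes was 0.63 and that of the lower genes -0.68, and 73 genes each way passed a log2 change of 1. The groups overlapped for each of the 610 genes. In what follows, rose and fell mean higher and lower in undivided tumours than in minor clones with an adjusted p under 0.05. Without the 4 outlying libraries 305 genes passed, 265 of them among the 610, and 158 of the 305 were higher. The call of many of the genes described below was lost without these libraries. These included Treh, Slc2a5, Slc6a19, Slc15a1, Slc7a9, Apoc3, Abcc2, Cyp3a11, Hnf4g, Isx, Cldn7, Vdr, Fstl1, Chga, Scg5, Sst, Cck, Pcsk1, Fev, Lmx1a, Clca1, Kit, Cd3e, Cd3g, Gzma, Gzmb, Txk, Btnl1, H2-K1, Psmb8, Psmb10, Tap2 and Isg20. Also lost were Mtmr4, Odad1, Slc4a2, Slc25a4, Btnl2, Btnl4, Atp5g3, Lgals7, Sult6b2, Ces2b, Hadhb, Cd209b, Cpn2, Apol7e, Gpr151, Bpifb4, Fut9, BC037156, Pax9, Rax, Irx3, Penk, Scnn1b, Bnip3, Cdh5, Wnt11, Fzd6, Fas, Sgk1, Cth, Nrg2, Scd1, Pik3r1 and Pdia6. At an unadjusted p of 0.05, 3226 genes differed, and the smallest adjusted p was 0.00618. At the threshold stood Mtmr4 (adjusted p = 0.04996) and Odad1 (0.04997), and just beyond it Bnip5 (0.0502) and Picalm (0.0503). Genes higher in undivided tumours had a median mean value of 1395 normalised counts, genes lower in them 379, and all tested genes 432. Protein-coding genes made up 94.1% of the higher and 95.3% of the lower genes found in the annotation, against 86.1% of all.

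The share of higher genes depended on how libraries were scaled. It was 61.5% with the deposited scaling and 57.6% after quantile normalisation. When each library was instead brought to the same sum, 649 genes passed and 36.7% of them were higher, and the median log2 change of all genes moved from -0.01 to -0.11. With Rn18s left out of that sum, 891 genes passed, 29.5% of them higher, and the median moved to -0.12. Under the same-sum scaling the medians of 9 of the 63 gene lists turned from positive to negative, each within 0.1 of 0 in both. These were secretory lineage factors, tuft cell genes, DNA replication genes, cyclins and CDKs, MYC targets, the mTOR pathway, splicing factors, solute carriers and galectins. Quantile normalisation turned the sign of the medians of goblet cell genes, MYC targets, neutrophil and mast cell genes, enteric neuron and glia genes, splicing factors and galectins, each again within 0.1 of 0.

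**Figure D1:**
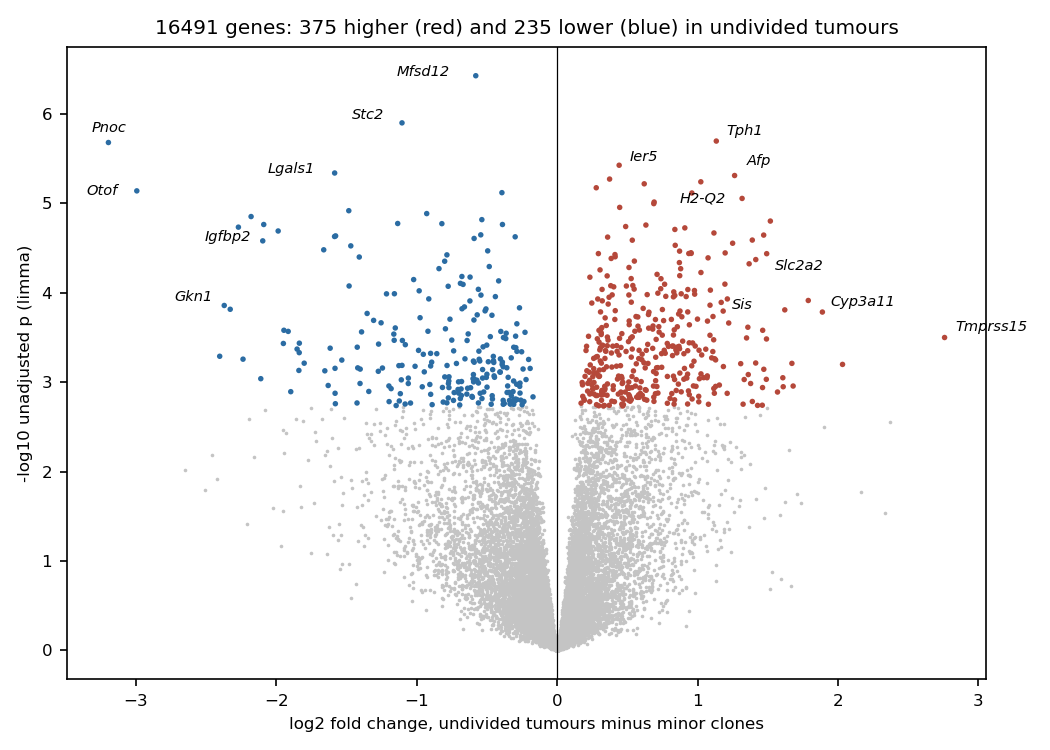
Each point is 1 of 16491 genes, with the log2 fold change between undivided tumours and minor clones on the x axis and -log10 of the unadjusted limma p on the y axis. Red points (375) were higher and blue points (235) lower in undivided tumours at an adjusted p under 0.05, grey points did not pass, and the genes with the largest changes lie on the lower side (Pnoc, Otof).

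Of 75 measured genes of the enterocyte list, 21 rose (28%, against 2.27% of all genes), 0 fell and 54 did not pass. In all, 68 had a positive log2 change, and the median change was 0.58 against -0.01 over all genes. Without the 4 outlying libraries 9 rose (median 0.51), and without undivided tumours 15, 17 and 18 of the male mouse 25 rose (median 0.67). The count was 20 under the same-sum scaling. The summed value of the list was 506200 to 3794000 (median 1669000) in undivided tumours and 409200 to 2145000 (median 1042000) in minor clones.

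The largest increase was in Tmprss15 (chr16:78749896-78887985 on GRCm39, minus strand), which encodes enteropeptidase, a brush border protease that activates trypsinogen. It ranged from 5.89 to 5093 (median 578) normalised counts in undivided tumours and from 0 to 2036 (median 163) in minor clones. The ranges overlapped broadly, and 15 of the 20 minor clones lay below the undivided median. The fitted difference was 6.77-fold (log2 2.76, SE 0.71, limma adjusted p = 0.0248).

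Sis encodes sucrase-isomaltase, which splits sucrose and starch fragments at the brush border. Its range was 5718 to 158910 (median 24003) in undivided tumours and 2884 to 45182 (median 10673) in minor clones, 2.25-fold higher in the former (log2 1.17, SE 0.28, adjusted p = 0.0169). Treh, the brush border trehalase, rose by a log2 change of 1.07. Both disaccharidases overlapped between groups, with 18 and 16 of 20 minor clones under the undivided median.

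The sugars these enzymes release are carried across the cell by transporters. Slc5a1 (SGLT1, apical sodium-glucose uptake, chr5:33261563-33320214) ranged from 5287 to 94824 (median 14968) in undivided tumours and from 2459.8 to 22241 (median 6030) in minor clones (2.29-fold, SE of the log2 change 0.26, adjusted p = 0.0107). Slc2a2 (GLUT2, the basolateral exit route, chr3:28752051-28785508) ranged from 495 to 22551 (median 2760) against 313 to 4289.8 (median 926) (log2 1.49, SE 0.32, adjusted p = 0.0107). Slc2a5, the fructose transporter, rose by 1.12, and the related Slc2a7 by 1.25. Khk (ketohexokinase) rose by 0.94 and Fbp1 (fructose bisphosphatase, chr13:63012567-63036263) by 1.52 (SE 0.31, adjusted p = 0.00985). Fbp1 had a median of 1102 in undivided tumours and 265 in minor clones, and 19 of 20 minor clones lay below the undivided median.

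Slc13a1, a sulfate transporter at chr6:24087228-24168096, rose 2.81-fold (log2 1.49, adjusted p = 0.025). Slc6a19 (neutral amino acids) changed by 1.13, Slc15a1 (PEPT1, di- and tripeptides) by 0.86 and Slc7a9 (cystine and basic amino acids) by 0.58. Purine-handling Gda (guanine deaminase) and Xdh (xanthine dehydrogenase) rose by 0.84 and 0.98, and for Gda all 20 minor clones lay below the undivided median of 11962. Apoc3, an apolipoprotein of triglyceride-rich particles, rose by 1.04, and the efflux pump Abcc2 by 0.82.

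Cyp3a11, a cytochrome P450 that oxidises drugs and bile acids (chr5:145791236-145816867), spread widely between tumours. It was 663 to 83958 (median 7998) in undivided tumours and 303 to 15206 (median 1348) in minor clones, 3.70-fold apart (log2 1.89, SE 0.46, adjusted p = 0.0188). The call was lost without the 4 outlying libraries. Its promoter and that of Sis are shown because both genes moved with the enterocyte list and the textbook regulators of that programme, the hepatocyte nuclear factors HNF4 and HNF1, have compact motifs. Sequences are from RefSeq on GRCm38.p6, an earlier build than that of the gene positions, and run 5′ to 3′ on the gene's strand from 250 bases before to 50 bases after the start. Capitals mark matches, on either strand, to 5 motifs. The letters searched were CAAAGTCCA or CAAAGGTCA for HNF4, GTTAATNA for the HNF1 motif and TATAAA for the TATA box. GATA factors and AP-1 were searched with the letters given at the gastric gene below.

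Cyp3a11, chr5:145879805-145880104, minus strand: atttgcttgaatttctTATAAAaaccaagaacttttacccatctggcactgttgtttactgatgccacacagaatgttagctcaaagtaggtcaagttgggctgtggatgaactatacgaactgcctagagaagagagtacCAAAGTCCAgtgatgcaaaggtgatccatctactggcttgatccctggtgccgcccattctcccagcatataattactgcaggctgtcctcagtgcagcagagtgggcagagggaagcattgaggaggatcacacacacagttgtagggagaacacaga

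Sis, chr3:72967814-72968113, minus strand: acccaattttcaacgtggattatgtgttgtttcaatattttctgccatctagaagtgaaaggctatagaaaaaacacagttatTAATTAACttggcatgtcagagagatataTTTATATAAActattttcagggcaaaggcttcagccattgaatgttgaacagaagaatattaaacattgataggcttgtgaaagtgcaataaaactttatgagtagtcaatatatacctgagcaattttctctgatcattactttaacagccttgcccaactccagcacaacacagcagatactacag

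The Cyp3a11 window held 1 HNF4 match, beginning 109 bases before the start, and 1 TATA match, beginning 234 bases before it. Sis held 1 HNF1 match, on the reverse strand and beginning 167 bases before the start. It also held a palindromic stretch that matches TATA on both strands, with matches beginning 138 and 134 bases before the start. Among 27025 promoters of the same length, 0.944% held the HNF4 letters, 2.63% the HNF1 letters and 14.2% the TATA letters. A match is a description of the letters in this window and not a measured binding site.

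**Figure D2:**
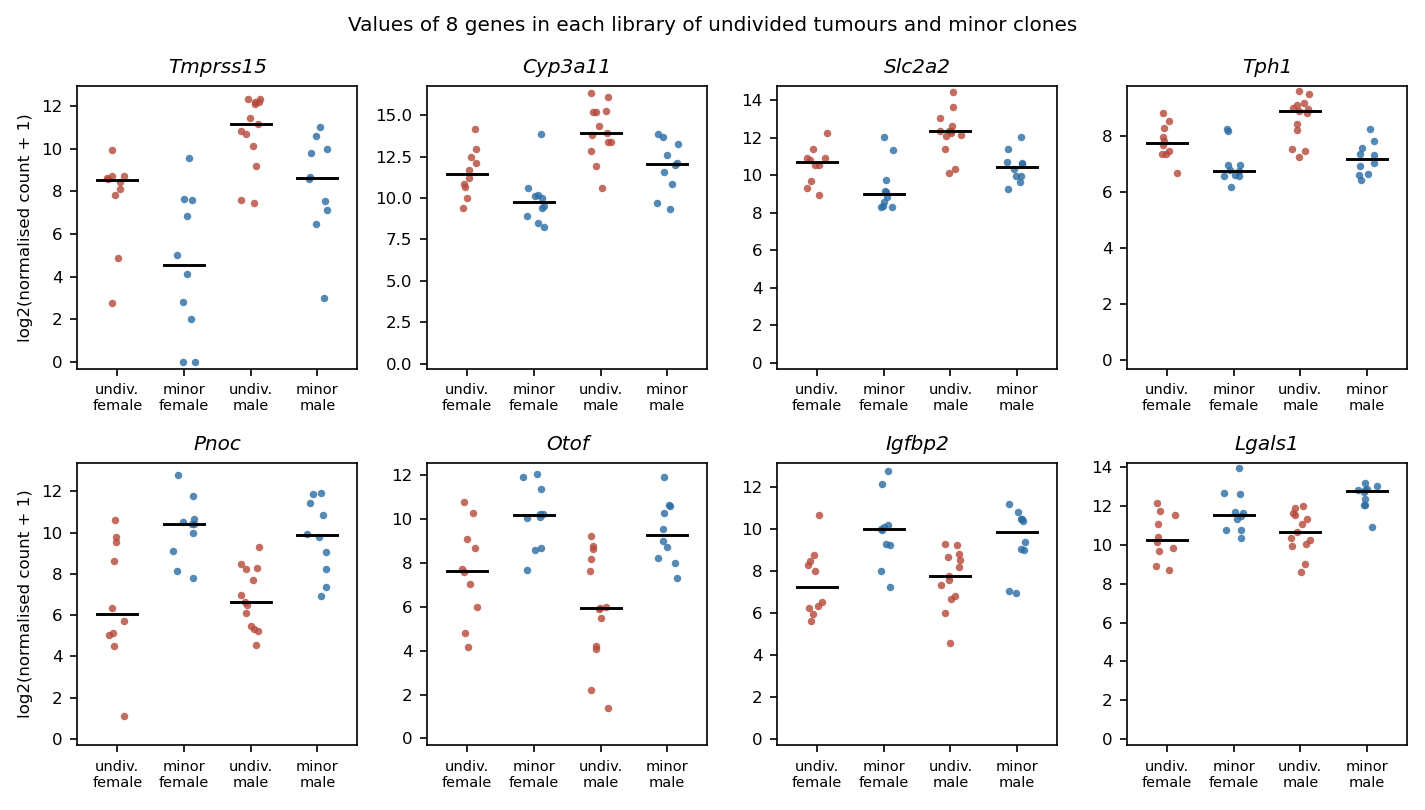
Points are libraries, the y axis is log2(normalised count + 1), and black bars are medians, for undivided tumours (red) and minor clones (blue) of each mouse. The median of undivided tumours lies above that of minor clones for Tmprss15, Cyp3a11, Slc2a2 and Tph1 and below it for Pnoc, Otof, Igfbp2 and Lgals1 in both mice, with overlapping ranges.

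In the epithelial identity list 4 of 21 genes rose (19%, against 2.27% of all genes) and 0 fell, with a median of 0.22, and 1 rose without the 4 outlying libraries. Hnf4g, a nuclear receptor of differentiated enterocytes, was 659 to 6048 (median 2245) in undivided tumours and 388 to 3762 (median 1203) in minor clones (log2 0.71, SE 0.20, adjusted p = 0.0402). Gata6 (log2 0.28), the homeobox factor Isx (log2 0.46) and the tight junction gene Cldn7 (log2 0.28) also passed. All 4 lost their call under the same-sum scaling. Vdr, the vitamin D receptor, rose 1.91-fold (log2 0.93, adjusted p = 0.0271, lost without the 4 outlying libraries), with 0.17 in the female and 1.60 in the male mouse. Cdx2 did not pass (log2 0.34, adjusted p = 0.0672).

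Of 29 genes of the proximal small intestine 6 rose (20.7%, against 2.27% of all genes) and 0 fell (median 0.74). Without the 4 outlying libraries 4 rose (median 0.57). Of the 6, 5 also stand in the enterocyte or the enteroendocrine list. The other, Adh6a, an alcohol dehydrogenase, was 547 to 18342 (median 3912) in undivided tumours and 189 to 3633 (median 1166) in minor clones, and all 20 minor clones lay below the undivided median (log2 1.32, SE 0.26, adjusted p = 0.00971). Of 24 distal genes none passed (median 0.15, and 0.30 without the 4 outlying libraries). The mix of segments differed between the groups. With SI30 left out and the segment held constant, 5 proximal genes rose (median 0.66) and no distal gene passed (median 0.26). No gene of either list passed within SI10 alone, where the medians were 0.91 and 0.56, or within SI20 alone, where they were 0.36 and 0.21.

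Several detoxification and lipid families were examined after their values had been seen, by gene name alone. Of 17 UDP-glucuronosyltransferases and sulfotransferases, which conjugate drugs and hormones, 7 rose (41.2%, against 2.27% of all genes) and 0 fell. Examples were Sult6b2 (log2 1.38) and Ugt1a1 (log2 1.08). Of 12 carboxylesterases 4 rose (33.3%, against 2.27% of all genes), with Ces2b at 1.12. Among 33 genes of peroxisomal and mitochondrial fatty acid oxidation 9 rose (27.3%, against 2.27% of all genes) and 0 fell. All 33 had a positive change (median 0.29). Ehhadh, the bifunctional enzyme of peroxisomal oxidation, rose 1.67-fold (log2 0.74, SE 0.17, adjusted p = 0.0142), and Hadhb, a subunit of the mitochondrial trifunctional protein, rose by 0.32. Members of the Ugt1a, Ces2 and Sult families share sequence, so reads may have been split between copies and single members are uncertain. Of 272 solute carriers, also taken by name, 27 rose (9.93%, against 2.27% of all genes), with a median of 0.05. Another 5 fell (1.84%, near the 1.43% of all genes). The 5 were Slc16a14 (log2 -1.99), Slc6a17 (-1.16), Slc7a6 (-0.53), Slc25a4 (-0.39) and Slc4a2 (-0.29). Without the 4 outlying libraries 4 of the conjugating enzymes, 1 carboxylesterase, 3 fatty acid oxidation genes and 10 solute carriers rose, and 4 solute carriers fell.

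Of 36 measured enteroendocrine genes 11 rose (30.6%, against 2.27% of all genes), 0 fell and 25 did not pass, and 31 had a positive change, with a median of 0.71. The count was 8 under the same-sum scaling, 6 without undivided tumours 15, 17 and 18 of the male mouse (median 0.61) and 3 without the 4 outlying libraries (median 0.55). Tph1, the rate-limiting enzyme of serotonin synthesis in enterochromaffin cells (chr7:46294065-46321965), had the smallest p among genes higher in undivided tumours. It ranged from 101 to 772 (median 307) in undivided tumours and from 70.9 to 302 (median 121) in minor clones, and all 20 minor clones fell below the undivided median (2.19-fold, log2 1.13, SE 0.21, adjusted p = 0.00862).

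Chga, chromogranin A, was 433 to 2644 (median 1081) in undivided tumours and 149.5 to 1731 (median 529) in minor clones (log2 0.93, SE 0.22, adjusted p = 0.0155), and 19 of 20 minor clones lay below the undivided median. Chgb rose by 0.95 and Scg5 by 0.94. Hormones of distinct cell types moved alike, namely Sst (somatostatin, 1.07), Cck (cholecystokinin, 0.87) and Sct (secretin, 0.83), together with the prohormone convertase Pcsk1 (0.84). Fev and Lmx1a, transcription factors of serotonin-producing cells, rose by 1.16 and 1.10 at low values, with medians of 11.6 and 16.6 in undivided tumours. Cartpt, a neuropeptide gene outside the list and named after its value was seen, rose 2.67-fold (log2 1.41, adjusted p = 0.0112).

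Of 37 goblet cell genes 1 rose (2.7%, near the 2.27% of all genes), Clca1 (log2 0.97, SE 0.25, adjusted p = 0.0263), which encodes a protein secreted with mucus, and the median was 0.00. Muc2, the gel-forming mucin, was 2662 to 30379 (median 8815) in undivided tumours and 646 to 43562 (median 13746) in minor clones and did not pass (log2 -0.44, 95% interval -1.12 to 0.24). Of 31 Paneth cell genes 2 fell (6.45%, against 1.43% of all genes), Pla2g2a (log2 -0.66) and Kit (log2 -0.90), and 13 were positive. Kit is not particular to Paneth cells. It also stands in the smooth muscle and pericyte list and in the neutrophil and mast cell list, where it was the only call among 34 genes. Lyz1 did not pass (log2 -0.47, limma adjusted p = 0.34). None of 32 tuft cell genes and none of 24 secretory lineage factors passed. Atoh1, the master regulator of the secretory fate, had a log2 difference of 0.18 (95% interval -0.22 to 0.57).

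In the T cell and cytotoxic lymphocyte list 7 of 42 genes rose (16.7%, against 2.27% of all genes), 0 fell, 35 did not pass and 38 were positive (median 0.71). This group depended on a few libraries. Without undivided tumours 15, 17 and 18 of the male mouse 1 rose and 1 fell (median 0.62), without the 4 outlying libraries none passed (median 0.55), and 2 passed under the same-sum scaling. The summed value of the list was 2197 to 13100 (median 3612) in undivided tumours and 1413 to 5448 (median 2674) in minor clones. Cd3e, a subunit of the T cell receptor complex, was 18.5 to 214 (median 51.1) against 4.89 to 70.2 (median 33.9) (log2 0.94, SE 0.28, adjusted p = 0.0437), and Cd3g rose by 0.83. The granzymes Gzma and Gzmb, proteases of cytotoxic granules, rose by 0.92 and 0.85, and the signalling kinase Txk by 0.86.

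All 6 measured butyrophilin-like genes, a family chosen after its values were seen, rose, against 2.27% of all genes, with a median of 0.72. Btnl1 and Btnl6, whose products pair on gut epithelium and hold gamma delta T cells there, ranged from 1018 to 11655 (median 3251) and 905 to 5913 (median 2072) in undivided tumours. In minor clones they ranged from 927 to 4480.1 (median 2146) and 364 to 2362 (median 1066). The log2 changes were 0.71 (adjusted p = 0.0326) and 0.91 (adjusted p = 0.00985), and 19 of 20 minor clones lay below the undivided median of Btnl6. Btnl5-ps and Btnl7-ps are pseudogenes that resemble their neighbours, so their reads are uncertain. The 6 remained higher without undivided tumours 15, 17 and 18, and 3 passed without the 4 outlying libraries. The 3 were Btnl6 and the pseudogenes Btnl5-ps and Btnl7-ps, and Btnl1, Btnl2 and Btnl4 lost their call.

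Of 17 genes of MHC class I, a family chosen after its values were seen, 5 rose (29.4%, against 2.27% of all genes) and 0 fell. The other 12 did not pass (median of the 17 genes 0.31), and 4 genes passed without the 4 outlying libraries. Of 72 interferon-response genes 6 rose (8.33%, against 2.27% of all genes) and 1 fell (1.39%, near the 1.43% of all genes). Of the 72, 68 were positive, with a median of 0.38, and 2 passed without the 4 outlying libraries. The 6 that rose were B2m, the light chain of class I molecules (chr2:121977957-121983594), the class I heavy chain gene H2-K1, the immunoproteasome subunits Psmb8 and Psmb10, the peptide transporter subunit Tap2 and the transcription factor Irf1. B2m was 8570.1 to 66123 (median 21839) in undivided tumours and 5499 to 21965 (median 11758) in minor clones (log2 0.77, SE 0.18, adjusted p = 0.0152). Irf1 rose 1.43-fold with all 20 minor clones below the undivided median of 2497. H2-Q2, a non-classical class I gene with close paralogues, rose by 1.02 (adjusted p = 0.00904). Isg20, an RNA exonuclease, went the other way (log2 -0.73). None of 8 MHC class II genes passed, although all 8 were positive (median 0.63).

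Of 43 macrophage and dendritic cell genes 2 rose (4.65%, against 2.27% of all genes), for example the cathepsin Ctss (log2 0.71), and 35 were positive (median 0.43). Cd209b, a C-type lectin of macrophages, rose 3.08-fold from a low level, 18.4 against 6.17 at the median. None of 21 B and plasma cell genes passed (median 0.44, and 0.28 without the 4 outlying libraries). The part of the lymphocyte content in the epithelial and antigen presentation results was not tested.

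**Figure D3:**
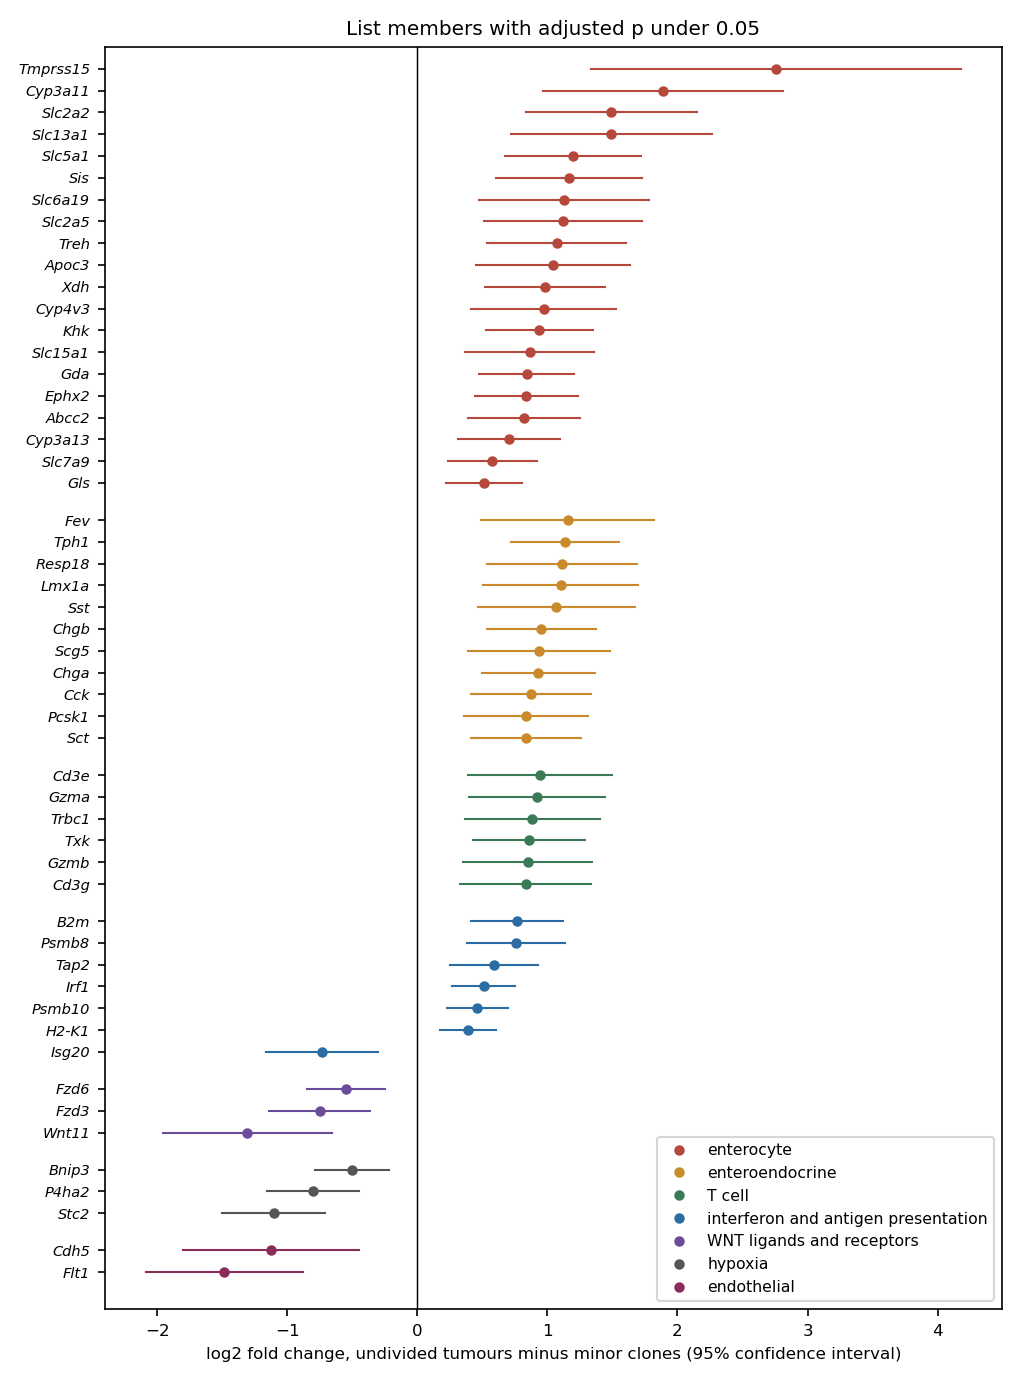
Points are log2 fold changes between undivided tumours and minor clones and lines their 95% confidence intervals, for members of 7 lists that had a limma adjusted p under 0.05 (some members are not drawn). Enterocyte, enteroendocrine and T cell members lie to the right of 0, and WNT ligands and receptors, hypoxia and endothelial members to the left.

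Further genes stood out by the size or the p of their increase. Afp, alpha-fetoprotein, a secreted protein of fetal liver and gut (chr5:90638584-90656766), was 23.7 to 771 (median 97.8) in undivided tumours and 14.3 to 112 (median 46.1) in minor clones (log2 1.26, SE 0.24, adjusted p = 0.00904). Ier5, an immediate early gene, rose only 1.36-fold but with all 20 minor clones below the undivided median of 1097. Ap1ar, an adaptor protein complex regulator, rose by 0.37. Nat8f2, an N-acetyltransferase family member with close copies, rose 3.46-fold (log2 1.79). Cpn2, Apol7e and Gpr151 completed the genes with the largest increases, at 1.61, 1.57 and 1.47, from medians under 20 normalised counts in minor clones. For Cpn2 the level differed between the mice, with 22.2 to 145 in female and 0 to 12.6 in male minor clones.

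The genes higher in minor clones were led by Pnoc and Otof, both near 0 in the lowest undivided tumours. Pnoc, which encodes the precursor of the neuropeptide nociceptin (chr14:65638122-65663196), changed the most. It ranged from 1.18 to 1574 (median 89.4) in undivided tumours and from 121 to 7201 (median 1184) in minor clones. All 20 minor clones lay above the undivided median, with overlap in the upper part of the undivided range (9.16-fold higher in minor clones, log2 -3.20, SE 0.58, adjusted p = 0.00862).

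Otof, otoferlin, a calcium sensor for vesicle release in hair cells (chr5:30524406-30619324), behaved alike in its size. It was 1.59 to 1746 (median 132) in undivided tumours and 159 to 4256 (median 1079.9) in minor clones (7.96-fold, log2 -2.99, SE 0.59, adjusted p = 0.00904). Again all 20 minor clones exceeded the undivided median. Both genes kept their call when any single library was left out and without the 4 outlying libraries.

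Gkn1, gastrokine 1, a secreted protein of the stomach surface, was 33.8 to 6103 (median 566) in undivided tumours and 1062 to 25077 (median 1896) in minor clones (5.17-fold, log2 -2.37, adjusted p = 0.0178). It was the only one of 14 gastric and duodenal gland genes to pass, and 12 of the 14 were negative, with a median of -0.74 (-0.43 without undivided tumours 15, 17 and 18 of the male mouse). Its promoter is shown because it was the abundant gastric gene among the largest changes. Its positions and capitals are as for the other promoters.

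Gkn1, chr6:87350866-87351165, minus strand: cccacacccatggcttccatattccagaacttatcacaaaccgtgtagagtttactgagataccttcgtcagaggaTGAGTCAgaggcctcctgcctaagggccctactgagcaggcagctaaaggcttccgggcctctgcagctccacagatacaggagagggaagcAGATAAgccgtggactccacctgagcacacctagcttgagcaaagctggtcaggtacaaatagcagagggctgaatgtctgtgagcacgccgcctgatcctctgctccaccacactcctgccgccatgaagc

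The window held 1 AP-1 match, read on both strands and beginning 174 bases before the start, and 1 GATA match beginning 82 bases before it. The letters searched were TGANTCA for AP-1 and AGATAA for the GATA factors, and they occurred in 7.93% and 11.4% of the 27025 promoters.

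Further genes with large changes were higher in minor clones. Tmprss11e, a protease of squamous epithelia, Bpifb4, Crb1, Cnksr2 and the fucosyltransferase Fut9 had log2 changes of -2.33, -2.24, -2.27, -2.18 and -2.11. The uncharacterised BC037156 had -2.40. The medians of the first 5 in undivided tumours were 62.5, 70.5, 10.7, 3.51 and 28.1 normalised counts. Of 73 homeobox genes, a family chosen after its values were seen, 5 fell (6.85%, against 1.43% of all genes) and 2 rose (2.74%, near the 2.27% of all genes). The 5 were Pax9 (log2 -1.84), Rax (-1.63), Irx3 (-1.53), Pou4f1 (-1.42) and Gbx2 (-1.27). Without the 4 outlying libraries 2 fell and 1 rose. Penk, the enkephalin precursor, had a log2 change of -1.34. The neuronal tubulin Tubb3 had one of -1.35 and was the single call among 16 enteric neuron and glia genes, of which 8 were positive and 8 negative (median -0.003). Of 7 epithelial sodium channel and mineralocorticoid genes, a family chosen after its values were seen, 2 fell (28.6%, against 1.43% of all genes) and 1 rose (14.3%, against 2.27%). Of the 7, 4 were positive (median 0.10, and -0.06 without the 4 outlying libraries, where 1 fell). The sodium channel subunits Scnn1g (-1.48) and Scnn1b (-1.06) fell, and all 20 minor clones lay above the undivided median for Scnn1g. The kinase gene Sgk1, which acts downstream of mineralocorticoids, rose by 0.72.

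Igfbp2, an insulin-like growth factor binding protein (chr1:72863606-72891634), was 22.7 to 1594 (median 210) in undivided tumours and 121 to 6830.1 (median 1000) in minor clones (4.28-fold, log2 -2.10, SE 0.45, adjusted p = 0.00987). Lgals1, galectin 1, a carbohydrate-binding protein of stroma and of some tumour cells (chr15:78810875-78814670), was 382 to 4526 (median 1348) against 1319.9 to 16061 (median 4736) (log2 -1.58, SE 0.30, adjusted p = 0.00904). For Lgals1 19 of 20 minor clones exceeded the undivided median. None of 60 fibroblast genes passed (median -0.09), and the summed fibroblast list was 15700 to 86100 (median 33030) in undivided tumours and 19840 to 83030 (median 38150) in minor clones.

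Mfsd12, a membrane protein needed to import cysteine into lysosomes, had the smallest p of all genes although its change was small. It was 469.6 to 1192 (median 777) in undivided tumours and 714 to 1472 (median 1157) in minor clones, 1.49-fold higher in the latter (log2 -0.58, SE 0.10, adjusted p = 0.00618). The size was close in the female (-0.53) and the male mouse (-0.62).

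In all, 3 genes of the glycolysis and hypoxia list fell (7.14%, against 1.43% of all genes) and 0 rose among 42 (median -0.08, and -0.03 with 2 falling without the 4 outlying libraries). Stc2, the secreted stanniocalcin 2 (chr11:31307307-31320124), was 67.3 to 638 (median 257) in undivided tumours and 164 to 1893 (median 546) in minor clones (2.15-fold, log2 -1.10, SE 0.20, adjusted p = 0.00862). P4ha2, a collagen prolyl hydroxylase subunit, changed by -0.80 with all 20 minor clones above the undivided median, and Bnip3, a mitophagy receptor, by -0.50. The glycolytic enzymes of the list did not pass.

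Of 49 endothelial genes 2 fell (4.08%, against 1.43% of all genes) and 0 rose (median -0.25, -0.16 without the 4 outlying libraries and -0.14 without undivided tumours 15, 17 and 18 of the male mouse). Flt1, a receptor for vascular endothelial growth factor, was 69.4 to 2706 (median 515) in undivided tumours and 668 to 3534 (median 1298) in minor clones (log2 -1.48, SE 0.30, adjusted p = 0.00985), and all 20 minor clones exceeded the undivided median. Cdh5, VE-cadherin, changed by -1.12 (adjusted p = 0.0473), and its call was lost without the 4 outlying libraries. The summed endothelial list was 9043 to 46480 (median 29080) in undivided tumours and 19180 to 57860 (median 36190) in minor clones.

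Of 31 WNT ligands and receptors 3 fell (9.68%, against 1.43% of all genes) and 0 rose (median -0.06), and 1 fell without the 4 outlying libraries. The 3 were the ligand Wnt11 (25.6 to 757 (median 166) against 115 to 943 (median 373), log2 -1.31, adjusted p = 0.0206) and the Frizzled receptors Fzd3 (-0.75) and Fzd6 (-0.55). Of 35 WNT targets and antagonists 1 fell (2.86%, against 1.43% of all genes), Lgr4, a receptor for R-spondins. For Lgr4 all 20 minor clones lay above the undivided median of 5770.1 (log2 -0.33, SE 0.09, adjusted p = 0.0295). Of those 35 genes 29 were negative, with a median of -0.21. Notum, a secreted WNT antagonist, had a log2 difference of -0.32 (adjusted p = 0.367) and Lgr5, the crypt stem cell receptor, one of -0.61 (95% interval -1.21 to -0.01, adjusted p = 0.247). Of 29 crypt stem cell genes 1 rose (3.45%, against 2.27% of all genes), Vdr, and 1 fell (3.45%, against 1.43%), the secreted glycoprotein Fstl1 (log2 -0.89). None of 30 genes of the APC destruction complex and TCF factors passed. Apc itself was 788 to 2889.5 (median 2059) in undivided tumours and 1252 to 4374 (median 1746) in minor clones (log2 -0.09, 95% interval -0.38 to 0.20). Transcript level does not show whether its second allele was mutated. For Ctnnb1, beta-catenin, the log2 difference was 0.02 (adjusted p = 0.937).

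**Figure D4:**
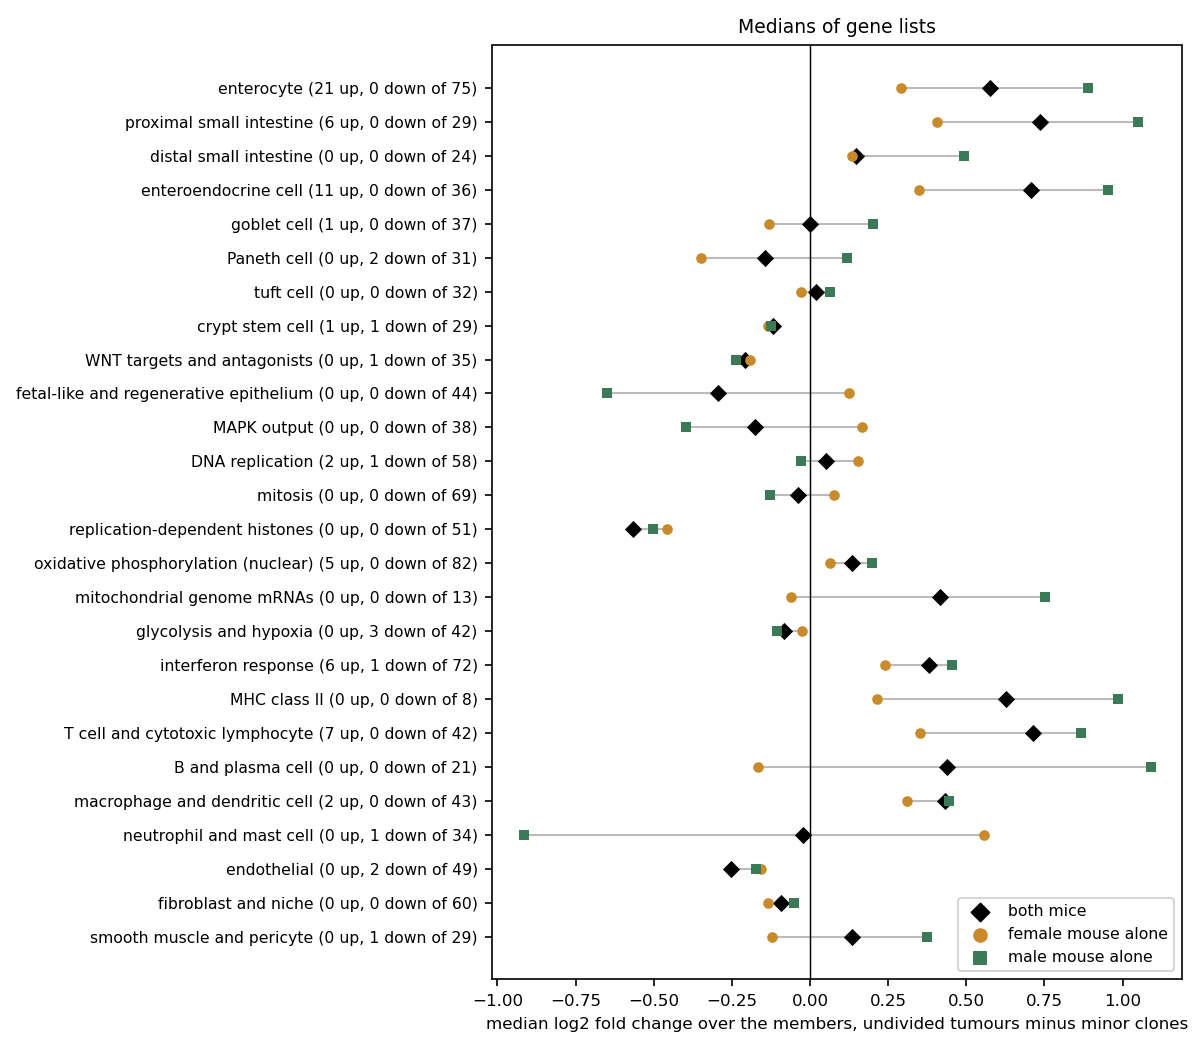
Markers are medians of the log2 fold change between undivided tumours and minor clones over the tested members of 26 lists, in both mice (black diamonds), the female mouse (orange circles) and the male mouse (green squares). Labels give the members that rose, fell and were tested in both mice, and the enterocyte, enteroendocrine, proximal intestine and T cell medians are positive in each mouse.

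Programmes of growth and regeneration did not separate the groups by single genes. None of 44 fetal-like and regenerative genes passed (median -0.29), none of 38 MAPK output genes (median -0.18), and none of 69 mitosis genes (median -0.04). Without undivided tumours 15, 17 and 18 of the male mouse the fetal-like median was -0.02 and the MAPK median 0.04, and without the 4 outlying libraries they were -0.10 and 0.00. Of 159 MYC targets 1 rose (0.629%, under the 2.27% of all genes), the mitochondrial phosphate carrier Slc25a3 (log2 0.21). None of 86 cytosolic ribosomal protein genes passed (median -0.04). Among 58 DNA replication genes 2 rose (3.45%, against 2.27% of all genes), for example Rrm2 (0.44), a subunit of ribonucleotide reductase. The 1 that fell (1.72%, near the 1.43% of all genes) was the DNA polymerase delta subunit gene Pold3 (-0.54). The log2 difference was -0.19 for Myc (adjusted p = 0.502), -0.28 for the proliferation marker Mki67, -0.04 for the cell cycle kinase gene Cdk4, -0.15 for the histone deacetylase gene Hdac2 and -0.36 for Anxa1, a gene of regenerating epithelium, and none of these passed. The replication-dependent histones, whose mRNAs lack poly(A) tails, had 0 calls among 51 with 48 negative (median -0.56). Of 82 nuclear genes of oxidative phosphorylation 5 rose (6.1%, against 2.27% of all genes) by small amounts, for example Sdha (0.29). Of the 82, 78 were positive (median 0.14), and 1 rose without the 4 outlying libraries. The 13 mitochondrially encoded mRNAs had no call and a median of 0.42, with -0.06 in the female and 0.75 in the male mouse.

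Single members passed in further lists. The kinase gene Nuak2, a YAP target, rose by 0.63, the cyclin gene Ccng2 by 0.53, the death receptor gene Fas by 0.69, and Cth, an enzyme of cysteine synthesis, by 0.47. Nrg2, a neuregulin that binds ERBB receptors, had a log2 change of -1.40, the fatty acid desaturase gene Scd1 -0.62, the PI3-kinase subunit gene Pik3r1 -0.45 and the endoplasmic reticulum foldases Pdia3 and Pdia6 -0.23 and -0.26. Each of these lists had at most 2 calls. None of 35 Notch pathway, 32 BMP pathway, 24 heat shock and 49 splicing factor genes passed.

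Each mouse was then analysed alone. In the male mouse 753 of 16491 genes passed, 4.57%, with 549 higher and 204 lower in undivided tumours. In the female mouse none passed with limma, 1447 had an unadjusted p under 0.05, and the median SE of a log2 change was 0.17 against 0.20 in the male. The 610 genes called in both mice together had a median absolute log2 change of 0.38 in the female and 0.88 in the male. Of the 753 genes called in the male mouse 582, or 77.3%, had the same sign in the female, whose libraries took no part in that call, against 54.6% of all genes. A female p under 0.05 with the same sign was seen for 79 of them, or 10.5%, against 5.22% of all genes. These shares are given as descriptions, because genes are not independent replicates.

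A direct test of the difference between the mice (the interaction of group and mouse in limma) passed for none of 16491 genes. The smallest adjusted p was 0.148, and 2098 genes had an unadjusted p under 0.05. The genes with the smallest interaction p were Zfp125 (0.28 in the female, -0.50 in the male), Hectd4 (-0.56 and 0.67) and Ucp2 (-0.13 and 0.52), each with opposite signs. The median of the enterocyte list was 0.29 in the female and 0.89 in the male, that of the enteroendocrine list 0.35 and 0.95 and that of the T cell list 0.35 and 0.87. Some lists had medians of opposite sign. Neutrophil and mast cell genes had 0.56 in the female and -0.92 in the male, B and plasma cell genes -0.16 and 1.09, fetal-like genes 0.13 and -0.65, and MAPK output genes 0.17 and -0.40. MYC targets had 0.13 in the female, with 145 of 159 positive, and -0.10 in the male, with 34 positive. Cytosolic ribosomal protein genes had 0.05 (66 of 86 positive) and -0.12 (5 positive), and mitosis genes 0.08 (45 of 69) and -0.13 (6). These differences between mice were not tested as lists.

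The segment was considered next, since SI30 gave 2 minor clones but 0 undivided tumours. A fit that also held the segment constant gave 367 genes, 347 of them among the 610. The same fit restricted to SI10 and SI20 gave 323, 308 of them among the 610, and 13 of 75 enterocyte, 7 of 36 enteroendocrine and 2 of 42 T cell genes rose. Within SI10 alone no gene passed with limma, and 1256 had an unadjusted p under 0.05. The enterocyte median there was 0.79 and the enteroendocrine median 0.91. Within SI20 alone none passed either, 2065 had an unadjusted p under 0.05, and these medians were 0.47 and 0.24.

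**Figure D5:**
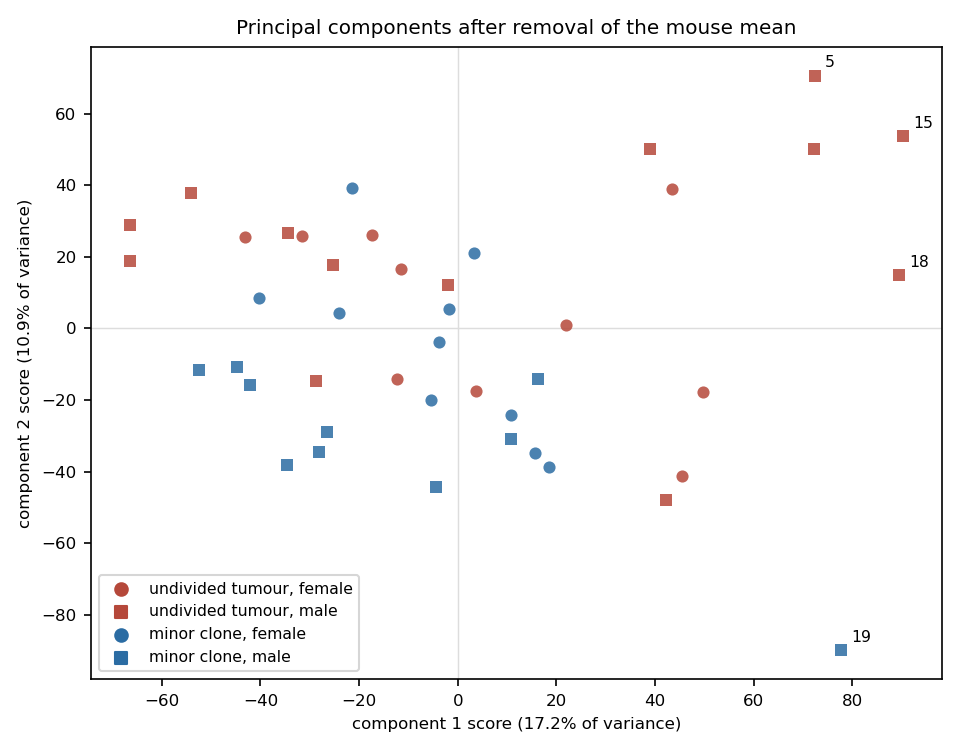
Each point is a library, placed by its scores on the first and second principal components of log2(value + 1) after removal of the mouse mean, for undivided tumours (red) and minor clones (blue) of the female (circles) and male (squares) mouse. Numbers are the tumour numbers of the 4 libraries farthest from their group mean. Undivided tumours of the male mouse lie higher on the second component with overlap, and the ranges of the female mouse nearly coincide.

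Principal components placed the group difference on the second axis. The first component held 17.2% of the variance and did not separate the groups (means 7.67 and -8.82, permutation within mice, two-sided p = 0.197, adjusted over 3 components 0.197). On the second, with 10.9% of the variance, undivided tumours had a mean of 15.8 (SD 30.2, n = 23) and minor clones -18.1 (SD 27.6, n = 20), which differed (permutation p = 7e-04, adjusted 0.0021). In the female mouse the scores on this axis ran from -41.15 to 38.97 in undivided tumours and from -38.73 to 39.24 in minor clones. In the male mouse they ran from -47.84 to 70.6 and from -89.97 to -10.82. The pooled difference therefore came mostly from the male mouse, and the axis was not tested within each mouse. Without the 4 outlying libraries the pooled means on the same axis were 11.2 and -14.4 (permutation p = 0.00383). The largest positive loadings included Akp3, an intestinal alkaline phosphatase, the iron uptake genes Slc11a2 and Cybrd1, Tmprss15 and Cyp3a11. The 5 libraries with the highest scores on the first component were undivided tumours 5, 15, 17 and 18 and the minor clone of tumour 19, all male, and their Rn18s share was between 10.96% and 19.35%. The part of this share in their position was not tested.

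Taken over both mice, undivided tumours also varied more among themselves. The root mean square distance of a library from the mean of its group and mouse was 0.823 log2 units on average (SD 0.166, n = 23) in undivided tumours and 0.699 (SD 0.113, n = 20) in minor clones, a difference of 0.109 when averaged over the mice (permutation within mice, two-sided p = 0.00419, adjusted over 3 library measures 0.0126). In the female mouse the distances ran from 0.579 to 0.819 in undivided tumours and from 0.582 to 0.714 in minor clones. In the male mouse they ran from 0.699 to 1.204 and from 0.579 to 1.106, and the mice were not tested apart. Without undivided tumours 15, 17 and 18 of the male mouse the difference was 0.0685 (permutation p = 0.0589).

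The same 23 undivided tumours were also set against the 20 major clones, so the 2 comparisons share one side and are given only next to each other. Of 16510 genes 2, or 0.0121%, passed against major clones, and 1973 had an unadjusted p under 0.05. The enterocyte list had a median log2 change of 0.58 against minor and 0.11 against major clones, and the enteroendocrine list 0.71 and 0.17. The T cell list had 0.71 and 0.48 and the interferon list 0.38 and 0.35. The log2 difference of Sis was 1.17 from minor and 0.07 (SE 0.27) from major clones, and that of Chgb 0.95 and 0.06 (SE 0.18). For B2m the values were 0.77 and 0.53 (SE 0.18). Among the genes lower in undivided tumours, Pnoc had -3.20 and -2.28 (SE 0.68), Otof -2.99 and -2.31 (SE 0.66) and Igfbp2 -2.10 and -1.57 (SE 0.39). None of the genes just named passed against major clones (adjusted p 0.132 for Igfbp2 and 0.252 for Pnoc). Muc2 had -0.44 from minor and -1.15 from major clones and passed in neither. Whether the differences from minor and from major clones themselves differ was not tested here.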

How the data were processed

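RNA of freshly dissected tumours was turned into stranded poly(A) mRNA libraries. The table the authors deposited holds a signal per gene and library named normalised counts. Per the submitters' processing notes, the tools were FastQC 0.11.9, Trimmomatic 0.39, STAR 2.7.7a, Picard 2.27.3, Salmon 1.9.0 and DESeq2 on GRCm39, and the study's methods give Gencode Mouse release M30 for counting. The scaling is not stated further. Values are not whole numbers, so no count model was used. Of 24766 genes in the table, 16491 whose mean reached 10 in the 43 libraries were tested on log2(value + 1) with limma 3.58.1 (trend) in R 4.3.3, with the mouse as covariate. A fold change on this scale understates low genes. P-values were Benjamini-Hochberg adjusted over all genes tested (threshold 0.05). Library measures and components were tested with 100000 permutations of group within mice. Depth was estimated from the spacing of low values and gives no interval for single genes.

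Named genes were the 10 largest changes and the 5 smallest p each way among called genes with a symbol and the same direction in each mouse, up to 4 called members of each of 51 lists, genes the study turns on and the 3 smallest interaction p. Some genes that met these rules are not reported here. Other list members and family members were named after their values were seen. The comparison, the lists and the rules were chosen with earlier results of these data known. Alternatives covered pseudocount, filter, scaling, limma options, covariates, segments and left-out libraries. The script was tested on simulated data.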

Additional observations from a re-analysis of the deposited data

How the results depend on the processing

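The count of 610 genes was within 1.5 times of its value under pseudocounts of 0.1 (563) and 5 (646), no filter on low values (427), a mean of at least 50 (632), quantile normalisation (688), limma without trend (547), with robust variance (607) and with array weights (760), and without undivided tumours 15, 17 and 18 of the male mouse (832). It was 328 with no covariate, 367 when the segment joined the mouse as covariate, 323 when SI30 was left out of that fit, 0 in the female mouse alone (limma, 1447 at an unadjusted p under 0.05), and, chosen after seeing the data, 0 within SI10 (1256), 0 within SI20 (2065) and 305 without the 4 libraries farthest from their group mean. Leaving out each library in turn gave 274 to 960 genes. The count fell by more than 1.5 times without undivided tumour 5 of the female (365) and 2 (362) or 5 (346) of the male mouse and without the minor clones of male tumours 26 (274), 27 (334), 23 (391) and 29 (335), and it exceeded 1.5 times without the minor clone of female tumour 19 (960). The greater distance of undivided tumours had p = 0.0589 without tumours 15, 17 and 18 (difference 0.0685). Of 83 called genes among those named by rule, 48 kept their call whichever library was left out, Isx, Cth, Fas, Cdh5, Cldn7, Atp5g3 and Pdia6 kept it in fewer than 22 of 43 such fits, 38 lost it without the 4 libraries, 23 with the segment as covariate and SI30 left out, 17 with the segment as covariate and 18 under same-sum scaling, and none turned its direction in a called result. The causes were not tested.

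No paired analysis was possible because undivided tumours have no partner library and share no tumour number with the minor clones of their mouse. Precision rests on 43 libraries of 2 animals. Depth per gene is unknown, and values near 0 cannot show that a gene is absent.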

Other observations

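Immunoglobulin genes, a family picked by name after its values were seen, varied with the mouse. Of 130 measured, 2 rose (1.54%, under the 2.27% of all genes, and 0 without the 4 outlying libraries) and 0 fell. A positive log2 change was seen for 124, and the median of the 130 was 0.65. The median was -0.23 in the female mouse, with 42 of 130 positive, and 1.54 in the male, with 127 of 130 positive. The summed value of the family was 12740 to 276700 (median 65860) in undivided tumours and 4517 to 197500 (median 40380) in minor clones. Variable segments resemble each other, so their single values are uncertain. No test compared the mice over the family.

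Other families picked by name after their values were seen gave mixed directions. Of 46 cytochromes P450 4 rose (8.7%, against 2.27% of all genes, and 0 without the 4 outlying libraries). The 1 that fell (2.17%, against 1.43% of all genes) was Cyp26a1, which degrades retinoic acid (log2 change -1.40, limma adjusted p = 0.0389). Of 9 galectins Lgals8 rose (0.26), 11.1% against 2.27% of all genes. Lgals1 (-1.58) and Lgals7 (-1.11) fell, 22.2% against 1.43% of all genes. Of 15 neuropeptide genes 3 rose (Sst, Cartpt and Cck, 20% against 2.27% of all genes) and 2 fell (Pnoc and Penk, 13.3% against 1.43%). Of the 15, 4 were positive, with a median of -0.38, and 1 rose and 1 fell without the 4 outlying libraries. Prrx1, a mesenchymal homeobox factor, rose by 0.98 (adjusted p = 0.0156), and of 29 smooth muscle and pericyte genes Kit alone passed. Of 21 core circadian clock genes none passed, with a median of 0.14 (0.05 without the 4 outlying libraries). Without those libraries Sst, Cck, Penk, Lgals7 and Kit lost their call.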
